A study of Rattus norvegicus with 4 samples.

Results

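Genes for the subunits of heterotrimeric G proteins and for RGS proteins, the regulators of G protein signalling, were compared between wtPC12 and hrPC12. Members were all genes whose symbol is that of an α subunit (Gna), a β subunit (Gnb), a γ subunit (Gng or Gngt) or a numbered Rgs gene. This rule found 43 of the 25810 genes listed in the count files, and the 32 with at least 20 reads over the 4 libraries are described, 20 subunit genes and 12 Rgs genes. Both clones derive from PC12, a line from a rat pheochromocytoma, a tumour of the catecholamine-releasing chromaffin cells of the adrenal medulla. The labels describe wtPC12 as wild type and hrPC12 as high in the repressor REST, and the study describes REST in wtPC12 as very low. No treatment is stated for either clone. RNA of each clone was sequenced in 2 libraries, with 20975027 and 21999191 reads on genes in wtPC12 and 27246502 and 21634943 in hrPC12. High and low REST were each studied in 1 clone, so that effects of REST and of other traits of a clone cannot be told apart, nor can fewer cells with an RNA and less of it per cell. The sources do not say whether the libraries of a clone come from separate cultures, so the tests measure only the spread between these libraries.

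A heterotrimeric G protein couples a receptor that crosses the membrane several times to enzymes and channels inside the cell. On activation the α subunit exchanges GDP for GTP and separates from the βγ dimer, and both then act on effectors such as adenylyl cyclase, phospholipase C and ion channels. RGS proteins end the signal by speeding up the hydrolysis of GTP by the α subunit. In neurons and chromaffin cells, Gi/o proteins and their βγ dimers restrain calcium channels and transmitter release, and many Rgs genes differ widely between tissues.

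Rgs4, a brake on Gi/o and Gq signalling, was 215-fold lower in hrPC12, and Rgs17 602-fold lower by summed reads (95% counting interval 166 to 4974), while Rgs3 and Rgs16 of the same RGS class as Rgs4 rose. The neuronal subunits Gnao1, Gng3 and Gng8 fell and Gnb1 rose, whereas Gnai2, Gnb2 and Gna11, the α and β genes with the most reads in their groups, gave no call. In total 14 of the 31 members that could be tested had an adjusted p under 0.05, 10 lower and 4 higher in hrPC12. Of all tested genes 32.4% did (16.3% lower and 16.1% higher). DESeq2 also called 10 members lower and 4 higher, and 2572 and 2584 of all 13726 tested genes. At an unadjusted p under 0.05 (edgeR) were 17 members, 10 lower and 7 higher, and 6357 of all tested genes, 3111 and 3246. The study set 2 thresholds together, adjusted p below 0.01 with a log2 FC beyond 2 up or down, and 9 members passed both, 6 lower and 3 higher, against 10.3% of all tested genes (5.46% lower and 4.84% higher). The libraries of the clones did not overlap in 23 of the 31, 12 lower and 11 higher, against 73.5% of all tested genes (35.6% and 37.9%). Without wtPC12 replicate 2 no gene passed both, since the smallest adjusted p over all genes (edgeR) was then 0.0134. All adjusted p values come from the quasi-likelihood test of edgeR, corrected by Benjamini-Hochberg over 13726 genes where all 4 libraries entered, and a fold change (FC) is the fitted ratio of hrPC12 to wtPC12, with its standard error (SE). The median size of the log2 FC, without its sign, was 1.57 over the 11 tested Rgs genes, 0.73 over the 20 subunit genes and 0.74 over all tested genes, a difference that was not tested. Members that passed the filter only through the clone in which they are high, as Rgs16, Rgs17, Gna14 and Gng7 did, had to differ. Each had a mean under 5 normalized counts in the other clone. These counts thus describe the genes and support nothing further. Counts were divided by library size with edgeR's TMM factors (normalized counts) and not by transcript length, so that levels of different genes are not compared.

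**Figure D1:**
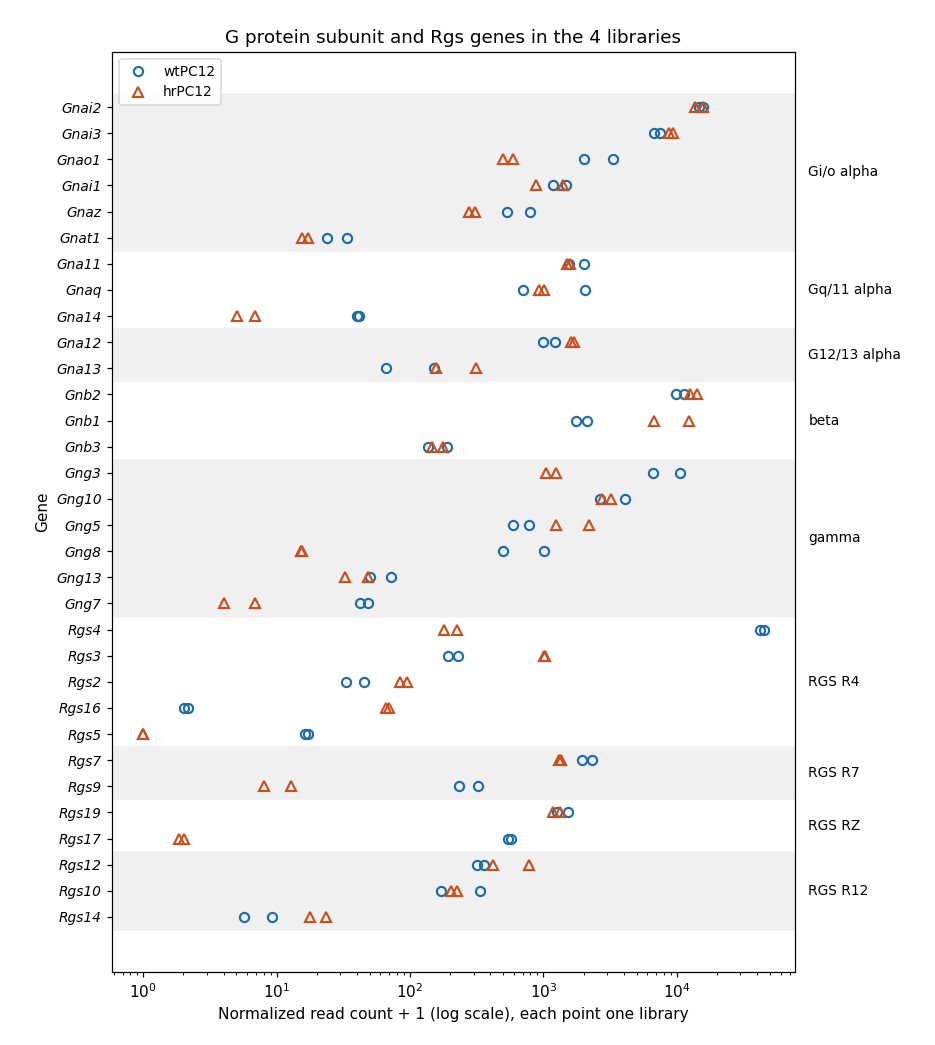
Normalized read counts, with 1 added, of the 32 described genes in each library on a log scale, by group of gene, with circles for the 2 wtPC12 libraries and triangles for the 2 hrPC12 libraries. Rgs4 and Rgs17 show the widest gaps between the clones, with 42066 or more against 225 or less in Rgs4, while the points of Gnai2, Gnb3 and Rgs19 overlap.

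Rest itself had 43.0 and 132 normalized counts in wtPC12 and 964 and 915 in hrPC12. Its log2 FC was 3.42 (SE 0.57, adjusted p = 0.0115, edgeR), beyond 2 while the adjusted p stayed above 0.01. Of 8 chromaffin markers 7 were found in the files and 6 tested, of which 5 fell (Chgb, Dbh, Phox2a, Slc18a1 and Th). Ddc had a log2 FC of 0.27. Of all tested genes 16.3% fell and 16.1% rose at an adjusted p under 0.05 (edgeR). The summed level of the chromaffin markers ranged from 814643 to 952888 normalized counts in wtPC12 and from 45708 to 50282 in hrPC12, and that of 6 fibroblast markers, of which 4 rose and Dcn fell, from 131 to 172 and from 84741 to 89143. Col3a1 alone held 83801 and 88143 of the fibroblast sum in hrPC12. Of the fibroblast markers called, Col1a1 and Col1a2 passed the filter only through hrPC12 and Dcn only through wtPC12, so these had to differ. Leukocyte markers summed to 35.0 to 39.6 and 85.5 to 96.1, with Ptprc and Itgam at no more than 1 read in any library, while Cd68 rose from 23.3 and 28.8 normalized counts to 75.3 and 87.0 (log2 FC 1.63, SE 0.37, adjusted p = 0.0283, edgeR) and made up most of the hrPC12 sum. Endothelial markers summed to 29.1 to 34.0 and 59.7 to 63.5. These levels move with the clones, and their part in the differences of the G protein and Rgs genes was not tested. Within hrPC12, replicate 1 exceeded replicate 2 by a log2 ratio past 0.5 in 24.1% of tested genes, and in 8 of the 31 members. The wtPC12 libraries differed more from each other, with a median log2 ratio, without its sign, of 0.39 over all tested genes and 0.38 over the members, against 0.17 and 0.20 in hrPC12. Of the members, Gna13, Gnai1, Gnb1, Gng5, Rgs9 and Rgs12 lie in runs of 27 to 64 tested genes that follow one another on the genome. In a run the median over neighbouring genes, though not every gene, was higher in replicate 1 of hrPC12. Runs hold 1158 of the 8943 tested genes placed. The part of these runs in the values of the members was not tested beyond leaving replicate 1 of hrPC12 out.

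RGS proteins of the R4 class are small, with little more than the RGS domain. Rgs4, which is abundant in neurons, had 44830 and 42066 normalized counts in wtPC12 and 180 and 225 in hrPC12. Both hrPC12 libraries thus lay far below both wtPC12 libraries, which differed little from each other. The log2 FC was −7.75 (SE 0.27, adjusted p = 0.000261, edgeR), a 215-fold lower level. Rgs5, the gene next to Rgs4 on the rat assembly GRCr8 and best known from pericytes, had 14 and 15 reads in wtPC12 and 0 in both hrPC12 libraries. Both libraries of wtPC12 held it and neither of hrPC12, and the filter of the study, which asks for reads in both clones, left it out of the test. Taking 3 reads per library as the limit that a count of 0 allows, its level was at least 5.73-fold lower in hrPC12 (counting error only).

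In the other direction, Rgs16, which also acts on Gi and Gq α subunits, had 1.16 and 1.03 normalized counts in wtPC12 and 65.2 and 68.8 in hrPC12. The wtPC12 values are 1 read per library, and hrPC12 had 77 and 68 reads. The ratio of the summed reads, corrected for depth, was 61.2 in favour of hrPC12, with an exact 95% interval of 16.6 to 510 (Clopper-Pearson, counting error only). Its adjusted p was 0.00224 (edgeR), but Rgs16 passed the filter only through hrPC12. It had to differ, so nothing further is read from this p. The neighbour of Rgs16 on GRCr8, Rgs8, was read only in hrPC12, with 9 and 4 reads, and stays under the minimum of 20. Rgs3, a longer member of the R4 class with several isoforms, had 192 and 228 normalized counts in wtPC12 and 1008 and 1021 in hrPC12. Its 2 hrPC12 libraries were nearly equal and both above the wtPC12 libraries, with a log2 FC of 2.27 (4.83-fold, SE 0.24, adjusted p = 0.00283, edgeR). Rgs2, known for its preference for Gq, had 44.2 and 31.9 normalized counts in wtPC12 and 93.1 and 83.0 in hrPC12, which did not overlap, with a log2 FC of 1.21 (SE 0.37) and an adjusted p of 0.0596 from edgeR's test. Of the R4 class, Rgs1, Rgs13 and Rgs18 had no read in any library.

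The RZ class acts on Gz and Gi/o α subunits. Rgs17, found mainly in brain, had 541 and 567 normalized counts in wtPC12, and 0.847 and 1.01 in hrPC12, which are 1 read per library against 465 and 550. The ratio of the summed reads was 602 in favour of wtPC12, with an exact 95% interval of 166 to 4974 (Clopper-Pearson, counting error only). The adjusted p was 0.000414 (edgeR), but Rgs17 passed the filter only through wtPC12. It had to differ, so nothing further is read from this p. Rgs19, also called Gaip and the first RGS protein found to bind a Gi α subunit, had 1538 and 1255 normalized counts in wtPC12 and 1185 and 1323 in hrPC12. The clones overlapped, and the log2 FC was −0.15 (SE 0.21, adjusted p = 0.586, edgeR). Rgs20, the remaining gene of the class, had no read.

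The start regions of Rgs4 and Rgs5, which lie side by side and were both lower in hrPC12, of Rgs17, and of Rgs16, which rose, are shown to let a reader look at the sequence around the start of the genes with the widest gaps. Each window holds 250 bases before and 50 bases after the annotated gene start in RefSeq on GRCr8, a later assembly than the one the reads were counted on, and is written 5′ to 3′ on the strand of the gene. The windows are chr13:84475835-84476134 (minus strand), chr13:84380827-84381126 (plus), chr1:44729896-44730195 (minus) and chr13:68437870-68438169 (plus). Capitals mark, on either strand, the letters CAGCACC and GGACAG, which are the cores of the left and right parts of RE1, the element bound by REST, the TATA box core TATAAA, and the GC box GGGCGG.
Rgs4: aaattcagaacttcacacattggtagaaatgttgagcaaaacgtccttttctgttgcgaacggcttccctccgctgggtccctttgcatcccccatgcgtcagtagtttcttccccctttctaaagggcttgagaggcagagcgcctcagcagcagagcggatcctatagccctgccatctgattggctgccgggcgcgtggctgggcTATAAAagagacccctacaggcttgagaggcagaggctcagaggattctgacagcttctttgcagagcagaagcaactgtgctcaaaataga
Rgs5: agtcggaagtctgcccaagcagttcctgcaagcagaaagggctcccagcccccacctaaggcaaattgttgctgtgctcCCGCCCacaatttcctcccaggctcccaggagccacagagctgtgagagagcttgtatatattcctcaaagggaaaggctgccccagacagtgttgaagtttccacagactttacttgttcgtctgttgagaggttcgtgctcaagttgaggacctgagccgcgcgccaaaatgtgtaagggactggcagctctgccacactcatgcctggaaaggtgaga
Rgs17: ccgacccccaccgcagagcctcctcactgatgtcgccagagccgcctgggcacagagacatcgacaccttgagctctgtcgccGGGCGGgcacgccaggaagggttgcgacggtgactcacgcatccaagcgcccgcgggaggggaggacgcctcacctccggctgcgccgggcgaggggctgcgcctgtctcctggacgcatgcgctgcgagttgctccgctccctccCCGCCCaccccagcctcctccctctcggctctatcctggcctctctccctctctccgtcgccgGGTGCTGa
Rgs16: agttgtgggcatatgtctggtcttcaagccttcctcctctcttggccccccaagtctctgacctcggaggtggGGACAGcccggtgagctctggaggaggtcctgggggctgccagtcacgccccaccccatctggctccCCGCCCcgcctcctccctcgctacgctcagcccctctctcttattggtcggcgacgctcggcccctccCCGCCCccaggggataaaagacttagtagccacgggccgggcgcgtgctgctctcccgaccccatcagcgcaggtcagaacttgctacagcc
Rgs4 holds the TATA core alone, at bases 209 to 214 of its window. Rgs17 holds the left RE1 core at bases 293 to 299 and a pair of GC boxes, Rgs16 the right RE1 core and 2 GC boxes, and Rgs5 a single GC box. No stretch of capitals in these windows holds overlapping motifs. The left RE1 core occurs in 6.78% of all 33469 RefSeq start windows, the right core in 21.7%, the TATA core in 14.2% and the GC box in 33.1%. A single window was found by symbol for 26 of the 32 genes, and of these 2, 11, 3 and 19 hold the 4 motifs in the same order. Both RE1 cores in order on a strand, 2 letters apart, occur in 0.0299% of all windows and in none of the 26. These are matches of letters in 300 bases and say nothing of REST binding elsewhere in or near the genes.

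The R7 class works in a complex with the β subunit Gnb5, whose row was not found under its symbol. Rgs9, known from photoreceptors and striatum, had 320 and 231 normalized counts in wtPC12 and 11.9 and 7.08 in hrPC12. Both hrPC12 libraries lay far below wtPC12, and the log2 FC was −4.83 (28.4-fold lower, SE 0.45, adjusted p = 0.00201, edgeR), or −5.25 without hrPC12 replicate 1. Rgs7, the member of the class most widely found in brain, had 2325 and 1940 normalized counts in wtPC12 and 1306 and 1362 in hrPC12. The difference was small but without overlap, with a log2 FC of −0.68 (SE 0.19) and an adjusted p of 0.0486 from edgeR's test. Its call was lost in 5 of 10 alternatives, with adjusted p values (edgeR or DESeq2) of 0.0264 to 0.300 over all 10. In the R12 class, the products of Rgs12 and Rgs14 carry further domains for Gi α or Ras-like proteins. None of Rgs10, Rgs12 and Rgs14 passed the test with edgeR or DESeq2. At an unadjusted p under 0.05 (edgeR) was 1 of the 3, against 6357 of all 13726 tested genes. Rgs12 had 357 and 317 normalized counts in wtPC12 and 774 and 416 in hrPC12, with hrPC12 replicate 1 well above the other libraries. Its log2 FC of 0.82 (SE 0.36) was 0.30 without that library. Rgs14 had few reads, 4 and 8 in wtPC12 and 20 and 22 in hrPC12, and Rgs10 overlapped between the clones.

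**Figure D2:**
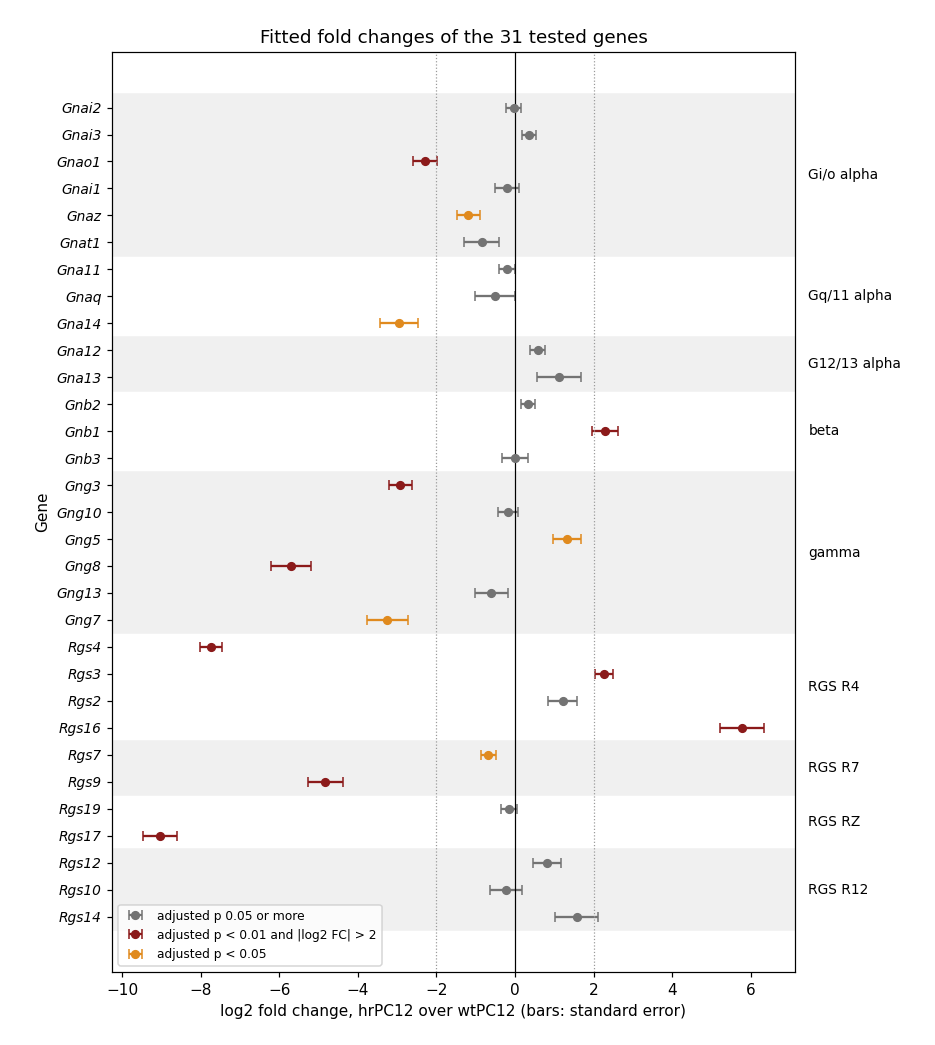
Fitted log2 FC of the 31 tested genes with its standard error as bars, by group of gene, coloured by call, with dotted lines at a log2 FC of 2 in either direction. Rgs genes range from −9.05 (Rgs17) to 5.78 (Rgs16), while α subunits lie between −2.96 (Gna14) and 1.11 (Gna13). The values of Rgs16 and Rgs17 rest on 1 read per library in the lower clone and depend on the prior count.

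Of the α subunits, 11 genes were described, and 3 fell and 0 rose, with the same numbers from DESeq2. Of the 3 that fell, Gna14 passed the filter only through wtPC12. The called share at an adjusted p under 0.05 (edgeR) was 27.3%, against 32.4% of all tested genes. At an unadjusted p under 0.05 (edgeR) 3 fell and 1 rose, against 3111 and 3246 of all 13726 tested genes. The Gi/o class inhibits adenylyl cyclase and mediates much of the signalling of receptors for transmitters. Gnao1, the most abundant α subunit of the brain, had 2031 and 3334 normalized counts in wtPC12 and 593 and 499 in hrPC12. The wtPC12 libraries differed by more than the hrPC12 libraries, but all of wtPC12 lay above hrPC12. The log2 FC was −2.30 (4.91-fold lower, SE 0.31, adjusted p = 0.00615, edgeR), and −1.89 without wtPC12 replicate 2. Gnaz, for an α subunit found in platelets and neurons and insensitive to pertussis toxin, had 533 and 797 normalized counts in wtPC12 and 306 and 277 in hrPC12. It fell with a log2 FC of −1.19 (SE 0.30, adjusted p = 0.0354, edgeR), a call lost without wtPC12 replicate 2 or without either hrPC12 library (adjusted p, edgeR, of 0.0559, 0.0696 and 0.101).

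The ubiquitous Gi genes gave no call. Gnai2 had 15585 and 14765 normalized counts in wtPC12 and 13780 and 15785 in hrPC12, so that the clones overlapped, and its log2 FC was −0.04 (SE 0.18, adjusted p = 0.881, edgeR). Its direction turns with library totals in place of TMM factors (0.03). Gnai3 had 7443 and 6714 in wtPC12 and 8811 and 9314 in hrPC12, with a log2 FC of 0.36 (SE 0.17, adjusted p = 0.155, edgeR). Gnai1, with a log2 FC of −0.20 (SE 0.30), overlapped between the clones, and without hrPC12 replicate 2 its log2 FC was 0.05, and −0.58 without hrPC12 replicate 1. The transducin gene Gnat1, which belongs to rod photoreceptors, was read at 16 to 28 reads per library and gave no call.

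Gq and G11 activate phospholipase Cβ. Gna11 had 1542 and 2003 normalized counts in wtPC12 and 1503 and 1569 in hrPC12, which overlapped, and its log2 FC was −0.21 (SE 0.21, adjusted p = 0.471, edgeR). Gnaq had 703 and 2041 in wtPC12 and 1013 and 921 in hrPC12. Since 1 wtPC12 library lay below and the other above both hrPC12 libraries, its direction depended on wtPC12, with a log2 FC of −1.11 without replicate 1 and 0.46 without replicate 2. Gna14, a relative of Gnaq with a narrower tissue range, had 35 and 38 reads in wtPC12 and 7 and 4 in hrPC12. It fell with a log2 FC of −2.96 (SE 0.48, adjusted p = 0.0111, edgeR), beyond a log2 FC of 2 while its adjusted p stayed above 0.01. Its hrPC12 mean of 4.99 normalized counts was under the minimum of 5, so Gna14 passed the filter only through wtPC12. It had to differ, and nothing further is read from this p. G12 and G13 signal to the cytoskeleton, and neither gene passed the test with edgeR or DESeq2. At an unadjusted p under 0.05 (edgeR) was 1 of the 2, against 6357 of all 13726 tested genes. Gna12 had 997 and 1214 normalized counts in wtPC12 and 1696 and 1596 in hrPC12, which did not overlap, a log2 FC of 0.57 (SE 0.20, adjusted p = 0.0847, edgeR). Gna13 had 65.1 and 151 in wtPC12 and 313 and 156 in hrPC12, so that the higher wtPC12 library lay close to the lower hrPC12 library. Its log2 FC was 1.11 (SE 0.56, adjusted p = 0.18, edgeR), and it was 1.85 without wtPC12 replicate 2, 0.59 without wtPC12 replicate 1 and 0.52 without hrPC12 replicate 1. For the Gs class only Gnal was found by the rule, with 5 reads in all, and Gnas was not found under its symbol, so that Gs is not described.

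No row was found under the symbol Gnb4, so that this β gene is not described. Of the β subunits described, Gnb1 changed. It had 1740 and 2130 normalized counts in wtPC12 and 12237 and 6763 in hrPC12, where replicate 1 was well above replicate 2. Both hrPC12 libraries exceeded wtPC12, with a log2 FC of 2.30 (4.91-fold higher, SE 0.34, adjusted p = 0.00804, edgeR). Without hrPC12 replicate 1 the log2 FC was 1.81, within the threshold of 2, and without wtPC12 replicate 2 the adjusted p (edgeR) was 0.0599. RefSeq names 2 pseudogenes of Gnb1, 5 of Gng5 and 1 each of Gng10 and Gnai2, so reads of these genes may have been shared or set aside as not unique. Gnb2, the β gene with the most reads, had 11309 and 9811 in wtPC12 and 12564 and 14143 in hrPC12, a log2 FC of 0.34 (SE 0.18, adjusted p = 0.206, edgeR). Gnb3, known from cone photoreceptors and taste cells, had 135 to 188 normalized counts in the 4 libraries and overlapped between the clones.

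The γ subunits anchor the βγ dimer in the membrane by a lipid at their end and differ strongly between tissues. Of 6 tested γ genes 3 fell and 1 rose, against 16.3% and 16.1% of all tested genes. Of the 3 that fell, Gng7 passed the filter only through wtPC12. No row was found under the symbols Gng2, Gng4 and Gng12, so that these genes are not described. Gng3, a γ subunit of neurons, had 10655 and 6627 normalized counts in wtPC12 and 1049 and 1236 in hrPC12. All of hrPC12 lay below wtPC12, with a log2 FC of −2.92 (7.56-fold lower, SE 0.29, adjusted p = 0.00261, edgeR). Gng8 had 1004 and 499 in wtPC12 and 14.4 and 14.2 in hrPC12. The wtPC12 libraries differed from each other by a log2 ratio of −1.01, less than the gap to hrPC12, and the log2 FC was −5.70 (52.1-fold lower, SE 0.50, adjusted p = 0.00173, edgeR). Gng7, best known from the striatum, where it pairs with the olfactory Gs α subunit, had 41 and 40 reads in wtPC12 and 7 and 3 in hrPC12. Its log2 FC was −3.25 (SE 0.53, adjusted p = 0.0109, edgeR). With a hrPC12 mean of 4.48 normalized counts, under the minimum of 5, Gng7 passed the filter only through wtPC12. It had to differ, and nothing further is read from this p.

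Gng5, a widely expressed γ subunit, had 781 and 589 normalized counts in wtPC12 and 2195 and 1233 in hrPC12. It rose with a log2 FC of 1.32 (SE 0.35, adjusted p = 0.0407, edgeR), and 0.85 without hrPC12 replicate 1, when the call was lost (adjusted p = 0.178, edgeR). It was also lost without wtPC12 replicate 1 or 2 (adjusted p = 0.0572 and 0.166, edgeR). Gng10, also widely expressed, had 4114 and 2640 in wtPC12 and 2766 and 3190 in hrPC12. The clones overlapped, and the log2 FC of −0.18 (SE 0.26) became 0.15 without wtPC12 replicate 1. Gng13, known from taste and olfactory cells, had 71.0 and 49.4 in wtPC12 and 47.4 and 31.4 in hrPC12 and gave no call (adjusted p = 0.312, edgeR). Gng11 was read in hrPC12 alone, with 7 and 6 reads, and Gngt2 in a single read. Altogether 11 of the 43 members had fewer than 20 reads, and 5 of these had none.

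**Figure D3:**
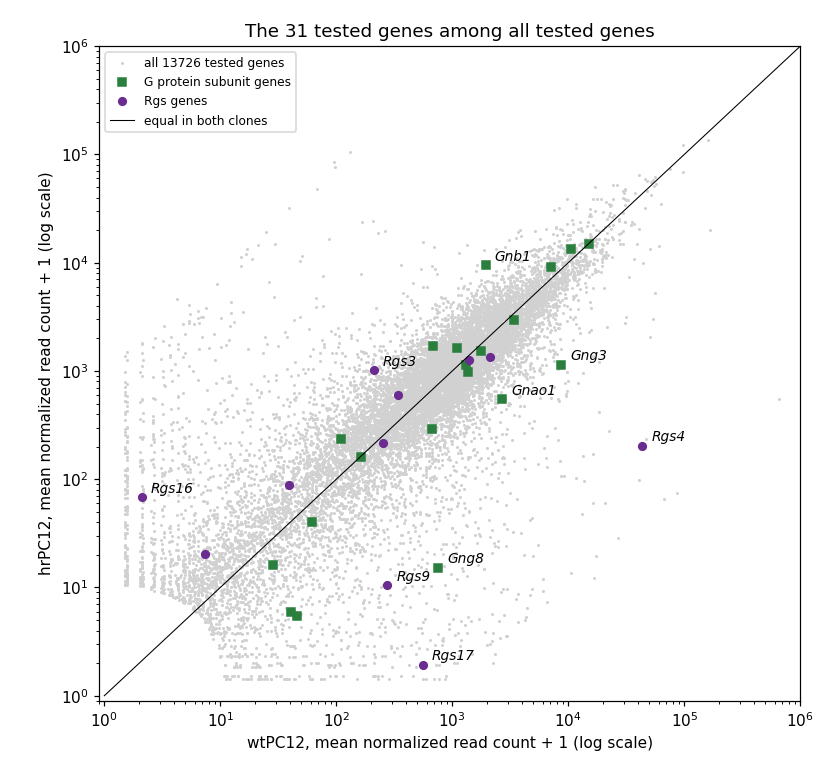
Mean normalized read count of the 2 libraries of each clone, with 1 added, on log axes, for all 13726 tested genes in grey with the subunit genes (squares) and Rgs genes (circles) on top, and the 9 members past both thresholds named. Rgs4 lies far below the line of equal levels at 43448 in wtPC12 against 202 in hrPC12, and Gnb1, Rgs3 and Rgs16 lie above it.

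A list of other genes of the pathway, effectors, receptors, kinases, arrestins and partners, held 59 genes, of which 51 were found in the files and 26 tested. Of the 26, 5 fell and 0 rose with edgeR, against 16.3% and 16.1% of all tested genes. With DESeq2 6 fell and 0 rose, against 2572 and 2584 of all 13726 tested genes. At an unadjusted p under 0.05 (edgeR) 12 fell and 0 rose, against 3111 and 3246 of the 13726. Their median log2 FC was −0.63, and that of all tested genes 0.06. Of the phospholipase Cβ genes, effectors of Gq, 2 of 4 fell. Plcb4 had 1605 and 2129 normalized counts in wtPC12 and 367 and 305 in hrPC12 (log2 FC −2.48, SE 0.25, adjusted p = 0.00276, edgeR). Plcb3 had 4617 and 4814 in wtPC12 and 1808 and 1800 in hrPC12, with replicates close together in each clone (log2 FC −1.39, SE 0.16, adjusted p = 0.0038, edgeR). None of the 5 tested adenylyl cyclases passed with edgeR or DESeq2, and 2 had an unadjusted p under 0.05. The lowest of these log2 FC was −1.41 (Adcy7, SE 0.53).

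Receptor kinases and arrestins switch off receptors. Of 5 tested, Adrbk1 fell, with 3219 and 3419 normalized counts in wtPC12 and 1525 and 1704 in hrPC12 (log2 FC −1.04, SE 0.17, adjusted p = 0.0113, edgeR). Of 2 tested RhoGEFs with an RGS domain, which bind G12 and G13 α subunits, Arhgef1 fell with a log2 FC of −0.71 (SE 0.16, adjusted p = 0.0266, edgeR). Of the receptors for catecholamines and acetylcholine, 17 were found and 2 could be tested. The muscarinic receptor gene Chrm4, coupled to Gi/o, had 966 and 978 in wtPC12 and 279 and 319 in hrPC12 (log2 FC −1.70, SE 0.22, adjusted p = 0.00581, edgeR). Chrm1 (31 and 30 reads) and the dopamine receptor gene Drd2 (45 and 41 reads) were read in wtPC12 and had 0 reads in both hrPC12 libraries, so that they were not tested. The reverse held for Kcnj3, a potassium channel opened by βγ dimers, with 0 reads in wtPC12 and 70 and 63 in hrPC12. Of 7 tested partners of G proteins and RGS proteins, none passed the test with edgeR and 1 passed with DESeq2. At an unadjusted p under 0.05 (edgeR) were 3 of them, against 6357 of all 13726 tested genes. Gpr158, which binds R7 proteins at the membrane, had 17 and 60 reads in wtPC12 and 0 in both hrPC12 libraries.

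**Figure D4:**
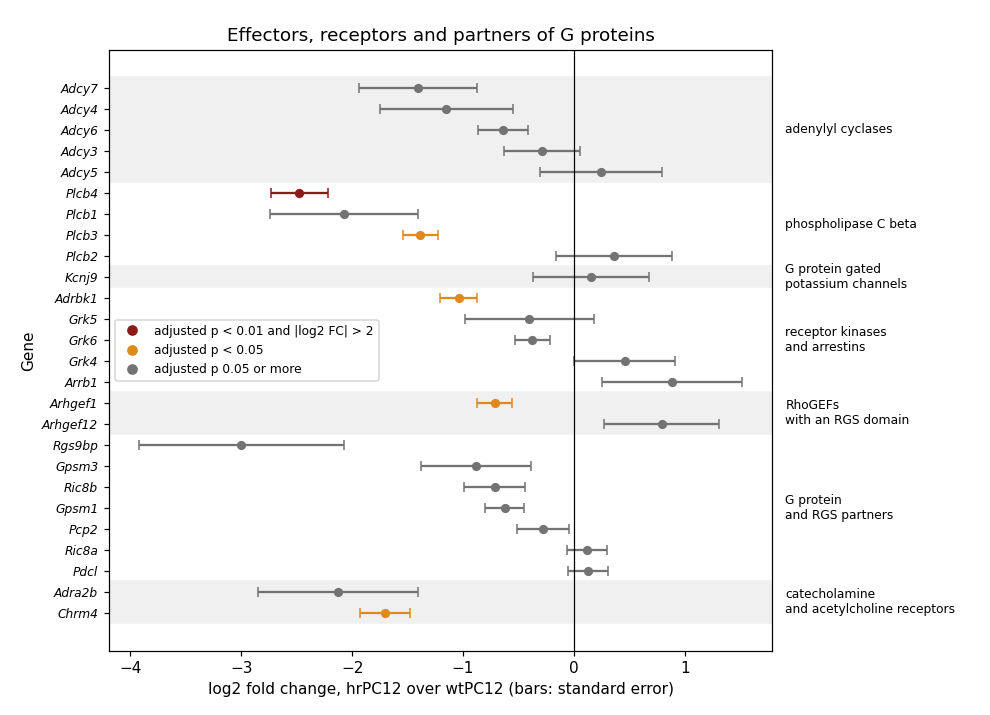
Fitted log2 FC of the 26 tested effectors, receptors and partners with its standard error as bars, by list, coloured by call. The 5 coloured genes, Plcb4, Plcb3, Chrm4, Adrbk1 and Arhgef1, all lie below 0.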

How the data were processed

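RNA-Seq counts of 4 libraries, 2 of wtPC12 and 2 of hrPC12, were analysed. The authors aligned paired-end reads to the rat build rn4 with TopHat2 2.0.4 and deposited raw counts of reads per gene for each library, without normalization or filter. The submitters' processing notes also name HTSeq 0.5.3 and DESeq 1.9.12. A deposited table of the authors' own DESeq comparison (means, fold changes and p values) was not used. Reads outside genes made up 49.9% to 55.9% of the reads accounted for and entered no library size. Whether counting used the strand is not given in the sources used here.

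Library sizes were scaled by TMM (edgeR). A gene was tested when its normalized count averaged 5 or more and each clone had reads, as in the study, with edgeR's quasi-likelihood test (glmQLFit with the legacy option on, R 4.3.3, edgeR 4.0.16) in place of DESeq, with Benjamini-Hochberg adjustment over all tested genes. The standard error is the log2 FC divided by the square root of the F value. With 2 libraries per clone a 2-sided exact permutation test cannot give a p under 0.333. The members, the role groups and the lists were chosen with earlier results of these data known. Values per library are given for members past both thresholds, members whose libraries in 1 clone held no more than 3 reads each, and the member with the most reads of each role group, and other genes named were chosen after their values were seen. Alternatives were RLE factors, library totals, 2 filters, the legacy option off, DESeq2 1.42.0 and each library left out in turn. In simulated counts of 13630 genes, edgeR's test at an adjusted p under 0.05 found 93 of 100 genes changed by a log2 FC of 2. It found 100 of 100 changed by 3, and called 5 unchanged genes. The changed genes were drawn only from genes with higher counts, and all genes shared a common dispersion of 0.0745. These rates thus do not apply to members with few reads. Shares of a family per length were not computed, since no transcript lengths were used here. Runs are stretches of at least 5 tested genes, ordered on GRCr8, in which replicate 1 of hrPC12 exceeds replicate 2 by a log2 ratio over 0.4, taken as the median over 7 neighbours. They hold 1158 of the 8943 genes placed by symbol. Single values of some marker genes are not reported here.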

Additional observations from a re-analysis of the deposited data

How the results depend on the processing

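No paired analysis was possible because the labels number no library of one clone to match a library of the other, and the replicate numbers used here only name the libraries. With another normalization, filter or test (6 of the 10 alternatives), 9 to 11 members were lower and 4 or 5 higher at an adjusted p under 0.05, and 8 or 9 were lower and 3 higher past both thresholds, against 10, 4, 6 and 3. With every gene of at least 1 read tested, 1127 genes were higher past both thresholds in place of 665. With 1 library left out, the lone library being assumed to vary like the other clone, members lower and higher at an adjusted p under 0.05 (edgeR) ranged from 8 to 10 and from 3 to 4, and past both thresholds from 0 to 8 and from 0 to 3, each 0 being without wtPC12 replicate 2. All genes lower and higher at an adjusted p under 0.05 (edgeR) then ranged from 1433 to 2374 and from 1551 to 2122, and past both thresholds from 0 to 859 and from 0 to 962. The lowest count of lower genes was without hrPC12 replicate 1.

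The log2 FC turned direction in 6 genes, none of them called. Gnai1 ranged from −0.58 to 0.046 with 1 hrPC12 library left out, and Gnai2 from −0.185 to 0.057, while library totals gave 0.031 for Gnai2 and 0.064 for Gnb3. With 1 wtPC12 library left out, Gnaq ranged from −1.11 to 0.46, Gnb3 from −0.23 to 0.22, Gng10 from −0.47 to 0.15 and Rgs10 from −0.64 to 0.31, and Gnb3 was 0.08 without hrPC12 replicate 2. Calls were lost in some alternatives for Gnaz, Gnb1, Gng5 and Rgs7 and gained for Gna12, Gnaq and Rgs2. The cause was not tested. The scalings moved the median log2 FC of all genes by −0.04 (RLE factors) and 0.06 (library totals). The share of a subunit family held by each member was not run, for want of transcript lengths.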

Other observations

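Rows of G protein and Rgs genes that carry a protein name in place of a symbol lay outside the rule and were chosen after their values were seen. RGS11_RAT, for a protein of the R7 class, had 832 and 1031 normalized counts in wtPC12 and 180 and 139 in hrPC12. Both hrPC12 libraries were lower, with a log2 FC of −2.54 (standard error, SE, 0.28, adjusted p = 0.00343, edgeR's quasi-likelihood test). GNAS3_RAT, a row named for a product of the Gnas locus, had 1164 and 1212 normalized counts in wtPC12 and 585 and 650 in hrPC12, a log2 FC of −0.95 (SE 0.20, adjusted p = 0.0236, edgeR). GNAT3_RAT, for the taste α subunit, had 0 reads in both wtPC12 libraries and 15 and 9 in hrPC12, and RGS6_RAT had no read in any library.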
